A study of Mus musculus with 36 samples.

Results

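The data below follow 10 genes of the Kruppel-like factor (Klf) family, Klf2, Klf3, Klf4, Klf5, Klf6, Klf7, Klf9, Klf10, Klf13 and Klf15, through an RNA-seq experiment on mouse embryonic fibroblasts (MEFs) treated with dexamethasone (Dex), a synthetic glucocorticoid. The genes were chosen by name, with earlier results of these data known, as rows of a table of raw read counts. The table held 55487 genes in 36 libraries, and all 10 members passed the expression filter that kept 15489 genes. The MEFs were primary cultures from mid-gestation embryos, and each library came from cells given vehicle or 1 µM Dex for 5 h. They differed in the gene of the glucocorticoid receptor (GR), Nr3c1. GRwt/wt carried the normal receptor, GRD/D a point mutation in the DNA-binding domain, GRL/L a point mutation in the ligand-binding domain, and GRD+L/D+L both mutations in the same protein, while GRko/ko was the GR knockout. GRD/D, GRD+L/D+L, GRko/ko and one set of GRwt/wt were run 1 (24 libraries). GRL/L and a separate set of GRwt/wt, told apart by replicate number because the sample titles name no run, were run 2 (12 libraries). Genotypes were therefore compared within a run, and the 2 runs were set against each other or averaged for GRwt/wt alone. Each genotype, run and treatment had 3 libraries, and the study describes 3 cultures per genotype from different mice. The sample labels do not name the culture of a library, so the p-values below measure the spread between libraries. Over all genes, the part of that spread beyond counting noise was small, with a common coefficient of variation of 0.0513. Some members spread more within a group, such as Klf13 in vehicle GRD/D, as given below. A difference between genotypes can also hold a difference between their cultures, and the 2 were not tested apart. By the labels all cells were FVB/NJ, but the methods put the GR-deficient mice on another inbred background. The GRD+L line goes back to 1 pup of the CRISPR/Cas9 experiment.

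Kruppel-like factors are zinc finger proteins whose C-terminal fingers bind GC-rich and CACCC sequences in promoters and enhancers. Some members activate transcription and others recruit corepressors, and members with similar sites can compete with each other. Klf9 and Klf15 are known glucocorticoid-induced genes in several tissues. GR itself is a hormone-activated transcription factor that works as a dimer or a monomer. Dimers bind full response elements, monomers can bind half-sites of them, and GR can also act through other transcription factors.

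The promoters of the members that rose with Dex in both GRwt/wt runs are shown because the motifs of the family and of GR can be read from them. Of the 10 members, 8 had an entry in the RefSeq table (GRCm38.p6), which holds the 250 bases before and the 50 bases after the start of each gene, and those of Klf5 and Klf10 had none. Capitals mark matches on either strand to a full glucocorticoid response element (GNACA and TGTNC with any 3 bases between them), the single hexamer AGAACA, the CACCC box (CACCC) or the GC box (GGGCGG). The last 2 can overlap, as in Klf13.
Klf9, chr19:23140976-23141275, plus strand: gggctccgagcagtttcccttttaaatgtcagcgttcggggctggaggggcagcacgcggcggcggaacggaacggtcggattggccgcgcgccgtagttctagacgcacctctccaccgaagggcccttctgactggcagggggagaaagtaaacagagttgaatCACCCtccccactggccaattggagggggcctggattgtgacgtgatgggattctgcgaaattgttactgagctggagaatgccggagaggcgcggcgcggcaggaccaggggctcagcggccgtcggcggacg
Klf15, chr6:90462326-90462625, plus strand: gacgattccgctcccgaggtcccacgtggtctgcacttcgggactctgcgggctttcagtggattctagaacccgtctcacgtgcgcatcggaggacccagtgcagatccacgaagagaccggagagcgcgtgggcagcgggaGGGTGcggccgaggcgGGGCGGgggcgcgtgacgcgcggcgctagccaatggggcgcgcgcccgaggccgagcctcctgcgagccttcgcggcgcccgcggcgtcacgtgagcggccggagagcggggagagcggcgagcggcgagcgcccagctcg
Klf6, chr13:5861239-5861538, plus strand: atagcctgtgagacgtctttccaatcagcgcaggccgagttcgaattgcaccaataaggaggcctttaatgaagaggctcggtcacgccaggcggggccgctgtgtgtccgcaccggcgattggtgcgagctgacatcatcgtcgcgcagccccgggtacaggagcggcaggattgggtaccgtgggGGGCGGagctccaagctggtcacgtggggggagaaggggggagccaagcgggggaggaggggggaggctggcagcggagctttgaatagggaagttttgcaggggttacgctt
Klf13, chr7:63938866-63939165, minus strand: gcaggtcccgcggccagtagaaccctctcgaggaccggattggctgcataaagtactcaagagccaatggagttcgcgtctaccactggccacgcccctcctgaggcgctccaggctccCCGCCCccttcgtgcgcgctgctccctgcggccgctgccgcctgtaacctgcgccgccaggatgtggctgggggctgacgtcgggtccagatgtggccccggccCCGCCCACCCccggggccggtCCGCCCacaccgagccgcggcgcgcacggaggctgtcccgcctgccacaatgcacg
The full element was found in 0 of the 8 members and in 0.475% of the 32851 promoters of the table, and the hexamer AGAACA in 0 members and 18.974% of promoters. A CACCC box occurs in 57.517% of promoters and a GC box in 35.658%. Klf9 held 1 CACCC box and 0 GC boxes, Klf15 held 1 of each, Klf6 held 1 GC box, and Klf13 held 1 CACCC box and 3 GC boxes. These are letter matches in a short window and were not set against binding data.

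Per kilobase of merged exon (GENCODE M21), Klf6, a widely expressed member, had the highest level in vehicle-treated GRwt/wt, at 74.0 CPM (read counts scaled to library size) per kb in run 1 and 51.02 in run 2. Klf15, an activator of amino acid metabolism genes, had the lowest, at 0.476 and 1.05 CPM per kb. The others lay between 3.66 (Klf5) and 26.1 (Klf4) CPM per kb in run 1, and between 3.62 (Klf5) and 15.9 (Klf9) in run 2. The GRwt/wt vehicle cultures of the 2 runs themselves differed for several members. Klf2 was at 36.4 ± 1.86 CPM in run 1 and 11.9 ± 2.64 in run 2 (SD, n = 3 each), and Klf13 at 155 ± 8.53 and 66.4 ± 5.28 CPM. Run and culture cannot be told apart in these values.

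Library totals ranged from 15280166 to 28662608 counts. Nr3c1 was at 70.2 ± 3.67 CPM in vehicle GRwt/wt of run 1 and at 16.6 ± 1.16 CPM in vehicle GRko/ko, a log2 difference of -2.08 (SE 0.07). Over single libraries it was 15.9 to 20.4 CPM in GRko/ko and 47.8 to 105 CPM in all others. All 8 fibroblast markers were detected, with a sum between 19952 and 32062 CPM, but single markers differed between cultures. Pdgfra in vehicle libraries was 41.7 to 49.7 CPM in GRwt/wt of run 1, 15.9 to 17.7 in GRD+L/D+L and 320 to 341 in GRwt/wt of run 2. Dcn was 77.6 to 84.95 CPM in vehicle GRwt/wt of run 1 and 583 to 635 in run 2. The sum of 6 macrophage markers was 52.6 to 94.95 CPM in vehicle GRwt/wt of run 1, 189 to 197 in GRD/D, 10.7 to 12.7 in GRD+L/D+L and 881 to 945 in GRko/ko. In run 2 it was 97.3 to 109 CPM in vehicle GRwt/wt and 205 to 249 in GRL/L. The library of GRwt/wt vehicle replicate 6 stood apart by Krt5 and Krt14, keratinocyte markers, at 20.6 and 25.0 CPM, where the other 2 vehicle libraries of that group were at most 0.328 and 0.917 CPM. GRwt/wt Dex replicate 4 of run 2 also stood apart, with a mean chi-square per gene of 19.3 and 23.0 against its 2 partners, which differed from each other by 1.88, and with Krt5 and Krt14 at 2.69 and 3.9997 CPM. It had the lowest Klf3, Klf4, Klf6, Klf7, Klf9 and Klf13 of its group and the highest Klf2 and Klf15. Leaving it out changed 1 call among the members, given with Klf9. The GRD/D vehicle libraries were the most spread, with 9.78 to 31.8 between pairs. In bulk RNA, fewer cells of a type and less RNA per cell cannot be told apart.

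**Figure D1:**
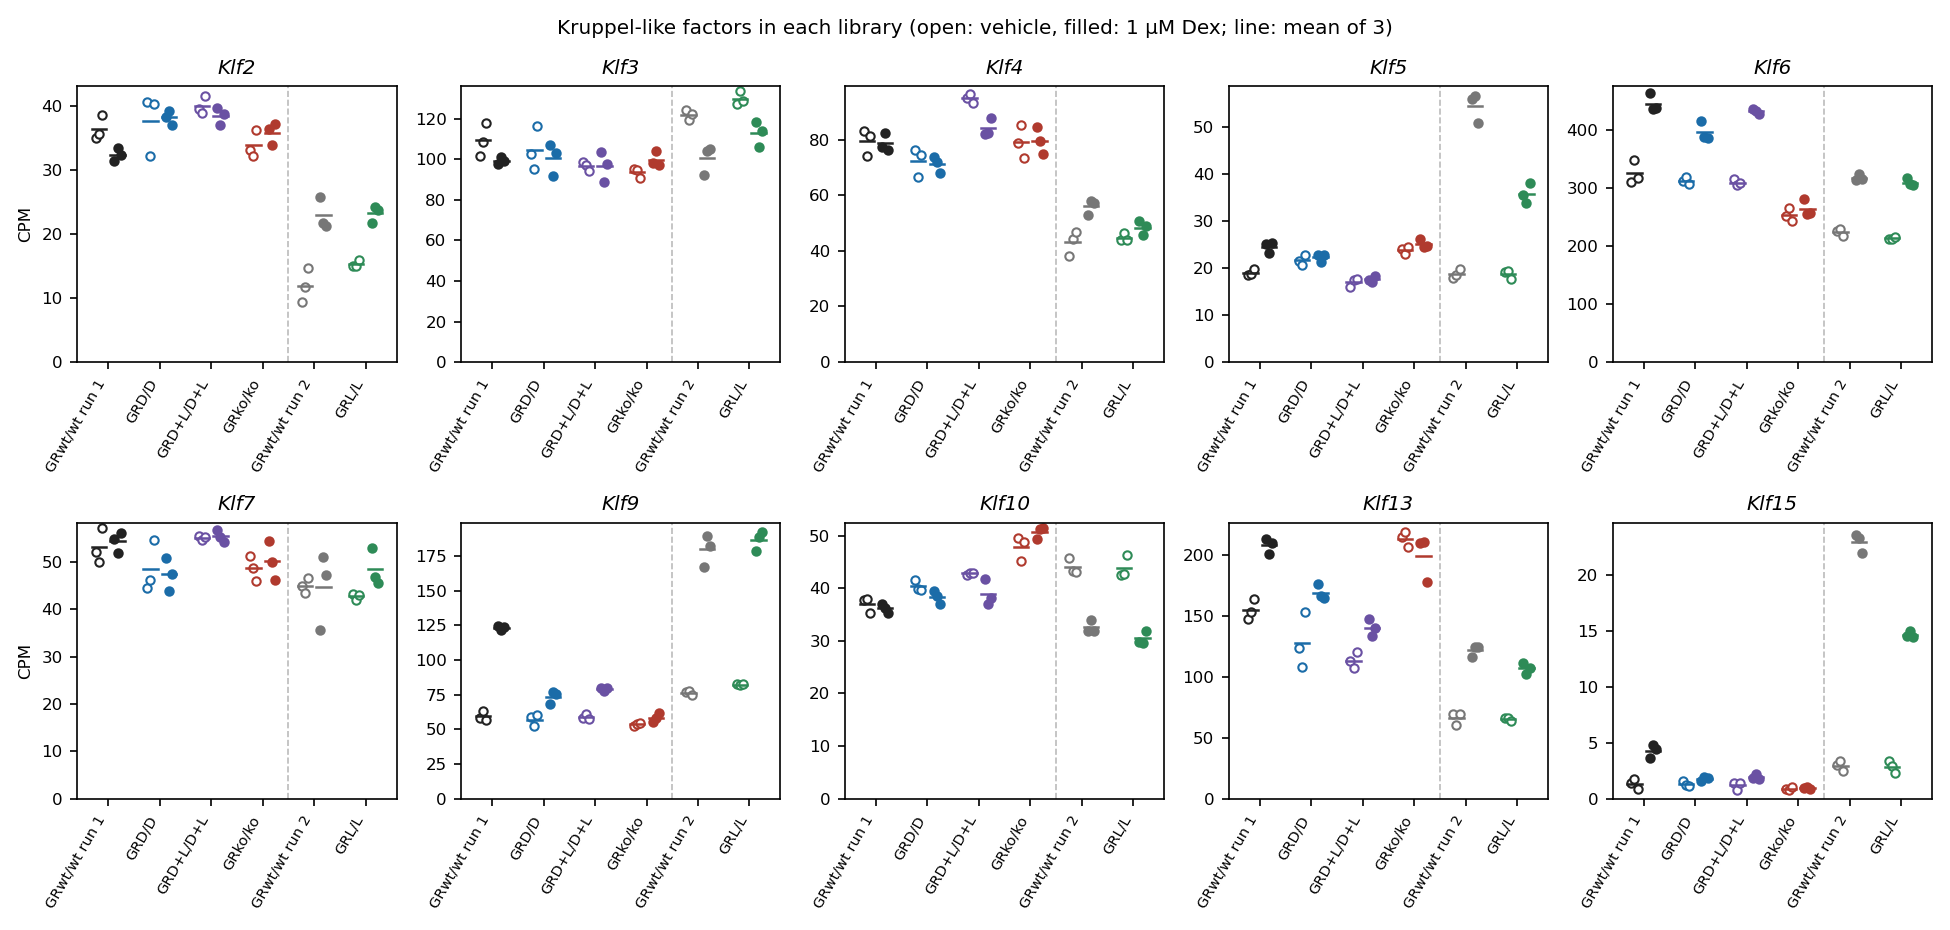
CPM of each Klf gene in every library, with one panel per gene. Open circles are vehicle libraries and filled circles Dex libraries, short lines are means of 3, the dashed line divides run 1 from run 2, and each axis starts at 0. Klf9 rises in every genotype with a GR, and Klf15 reaches 23.0 CPM in Dex-treated GRwt/wt of run 2 against 4.31 in run 1.

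The first comparison asked which members respond to Dex when GR is normal. In GRwt/wt of run 1, 5 of 10 members rose and 0 fell, where 7.74% of all tested genes rose and 6.2% fell. In run 2, 7 rose and 2 fell, against 14.9% and 16.7% of all genes. Klf9, Klf15, Klf5, Klf6 and Klf13 rose in both runs. The median log2 fold change of the 10 was 0.20 in run 1 and 0.69 in run 2, and that of all tested genes was -0.00 and -0.01. With the mean of both runs, 7 members rose (all genes 15.7%) and 2 fell (all genes 16.8%). Calls are those of edgeR's quasi-likelihood test at a Benjamini-Hochberg adjusted p of at most 0.05 over all genes. The members, and the lists of genes further below, were chosen with earlier results of these data known. Their counts beside the shares of all genes are therefore descriptions.

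Klf9, a repressor that recruits Sin3a and is close in sequence to Klf13, rose in both runs of GRwt/wt by a like amount. In GRwt/wt of run 1 the vehicle libraries held 57.9, 63.2 and 57.02 CPM and the Dex libraries 124, 121 and 124 CPM. In run 2 the vehicle libraries held 76.9, 77.9 and 74.5 CPM and the Dex libraries 168, 190 and 182 CPM. The groups did not overlap in either run, and the folds were 2.08 and 2.36. The log2 fold change was 1.05 (SE 0.05, adjusted p = 1.1e-17) in run 1 and 1.24 (SE 0.05, adjusted p = 3.77e-21) in run 2, and the difference between runs, 0.18 (95% interval 0.03 to 0.33), did not pass (adjusted p = 0.148), though it did without Dex replicate 4 of run 2 (0.23, adjusted p = 0.0392). GRL/L cells went from 82.7, 81.7 and 82.6 CPM to 178, 189 and 192 CPM, a log2 fold change of 1.18 (SE 0.05, adjusted p = 3.7e-20). In GRD/D, vehicle libraries at 58.7, 52.3 and 60.4 CPM stood against Dex libraries at 68.6, 76.7 and 75.3 CPM. GRD+L/D+L libraries rose from 58.4, 60.9 and 57.6 CPM to 80.1, 77.4 and 79.6 CPM. The Dex libraries of both mutants lay above their own vehicle libraries and below every Dex library of GRwt/wt. Their log2 fold changes were 0.37 (SE 0.06, adjusted p = 7.81e-06) and 0.42 (SE 0.06, adjusted p = 8.41e-07). In GRko/ko the vehicle libraries held 52.2, 53.7 and 54.9 CPM and the Dex libraries 55.3, 58.4 and 61.7 CPM. Those groups also did not overlap, but the log2 fold change of 0.13 (SE 0.06) had an adjusted p of 0.835.

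Klf15 showed the largest fold of the 10 members in both GRwt/wt runs, from the lowest base. Vehicle libraries of run 1 held 1.36, 1.78 and 0.843 CPM, which were 13 to 26 counts, and Dex libraries 3.66, 4.80 and 4.48 CPM. In run 2, vehicle libraries held 3.00, 3.36 and 2.45 CPM and Dex libraries 23.6, 23.4 and 22.0 CPM. Every Dex library was above every vehicle library, and the rise was 3.24-fold in run 1 and 7.81-fold in run 2. On the log2 scale these were 1.70 (SE 0.20, adjusted p = 2.87e-08) and 2.97 (SE 0.11, adjusted p = 7.78e-22). GRL/L vehicle libraries at 3.35, 2.94 and 2.31 CPM rose to 14.6, 14.99 and 14.5 CPM (log2 fold change 2.35, SE 0.12, adjusted p = 3.2e-18). The Dex libraries of GRL/L thus lay between the vehicle and the Dex libraries of GRwt/wt in run 2. In GRD/D the libraries held 1.61, 1.21 and 1.12 CPM with vehicle and 1.58, 1.92 and 1.81 CPM with Dex, and the groups overlapped. GRD+L/D+L libraries held 1.44, 0.768 and 1.36 CPM with vehicle and 1.85, 2.17 and 1.74 CPM with Dex. The GRD+L/D+L groups did not overlap. Neither mutant passed, with log2 fold changes of 0.45 (95% interval -0.03 to 0.94, adjusted p = 0.238) and 0.69 (0.20 to 1.19, adjusted p = 0.108). At 12 to 34 counts per library in these cells, the intervals leave room for a rise of more than 1.5-fold. GRko/ko libraries held 0.794 to 1.01 CPM with vehicle and 0.838 to 1.03 CPM with Dex.

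Klf5 (chr14:99298691-99315036, plus strand, GRCm38), a factor of proliferating epithelial and smooth muscle cells, rose in GRwt/wt by an amount that depended on the run. In run 1 it went from 18.5, 18.7 and 19.9 CPM to 25.2, 23.2 and 25.4 CPM (log2 fold change 0.37, SE 0.07, adjusted p = 8.37e-05). In run 2 it went from 18.0, 18.7 and 19.8 CPM to 56.1, 56.8 and 50.98 CPM (1.54, SE 0.06, adjusted p = 1.62e-22). The vehicle libraries of the runs overlapped and the Dex libraries did not. In GRL/L it went from 19.1, 19.5 and 17.8 CPM to 35.5, 33.8 and 38.1 CPM (0.93, SE 0.06, adjusted p = 1.32e-15). GRD/D libraries held 20.7 to 22.9 CPM with vehicle and 21.3 to 22.9 CPM with Dex, and GRD+L/D+L libraries 16.0 to 17.6 and 17.2 to 18.4 CPM. These groups overlapped, with log2 fold changes of 0.04 (SE 0.07) and 0.05 (SE 0.07). The library rich in Krt5 and Krt14 held 19.8 CPM of Klf5, and without it the run 2 log2 fold change was 1.58 (adjusted p = 1.31e-20).

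Klf6 and Klf13, like Klf9, rose in every genotype with a GR. Klf6 is an early gene of injury and stress in many cell types. Klf6 went from 310, 348 and 317 CPM to 463, 435 and 438 CPM in GRwt/wt of run 1, and from 226, 229 and 217 CPM to 314, 324 and 315 CPM in run 2. In GRD/D it went from 312, 319 and 307 CPM to 416, 387 and 386 CPM. GRD+L/D+L libraries went from 315, 305 and 308 CPM to 436, 433 and 427 CPM. In these 4 settings and in GRL/L (212, 212 and 216 to 317, 306 and 305 CPM) all Dex libraries were above all vehicle libraries. The log2 fold changes were 0.45 and 0.50 in the runs of GRwt/wt, 0.34 in GRD/D, 0.48 in GRD+L/D+L and 0.54 in GRL/L, each with an SE of 0.04 and adjusted p-values from 2.22e-12 (GRL/L) to 2.93e-07 (GRD/D). In GRko/ko it was 0.06 (SE 0.04, adjusted p = 0.935).

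Klf13, which like Klf9 binds Sin3a and is known from cytokine gene control in T cells, went from 147, 153 and 164 CPM to 213, 201 and 210 CPM in GRwt/wt of run 1. In run 2 it went from 69.3, 60.3 and 69.6 CPM to 116, 125 and 125 CPM. The log2 fold changes were 0.43 (SE 0.08, adjusted p = 5.36e-05) and 0.88 (SE 0.08, adjusted p = 9.76e-12). GRL/L libraries rose from 66.0, 66.0 and 63.3 CPM to 111, 102 and 107 CPM (0.72, SE 0.08). GRD/D vehicle libraries spread widely, at 123, 108 and 153 CPM, and stayed below the Dex libraries at 176, 166 and 165 CPM (0.40, SE 0.08, adjusted p = 0.000265). GRD+L/D+L libraries went from 113, 107 and 120 CPM to 147, 133 and 140 CPM. That change of 0.31 (SE 0.08, adjusted p = 0.011) was no longer called without Dex replicate 1 (0.27, adjusted p = 0.0856) or without vehicle replicate 2 (0.27, adjusted p = 0.0869), nor with an additive run term (0.31, adjusted p = 0.0627). In GRko/ko the vehicle libraries held 214, 219 and 206 CPM and the Dex libraries 210, 211 and 177 CPM, and these overlapped.

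Klf2 (chr8:72319033-72321656, plus strand) and Klf4 (chr4:55527143-55532466, minus strand), factors known from endothelial quiescence and from epithelial barriers and reprogramming, rose in GRwt/wt only among the run 2 libraries. Klf2 went from 9.42, 11.7 and 14.7 CPM to 25.8, 21.7 and 21.3 CPM in run 2 (log2 fold change 0.95, SE 0.10, adjusted p = 4.11e-10). In run 1 it held 35.0, 35.7 and 38.5 CPM with vehicle and 31.3, 33.4 and 32.3 CPM with Dex. The run 1 Dex libraries lay below the vehicle libraries, but the value of -0.17 (SE 0.09) did not pass (adjusted p = 0.249). Even after Dex, Klf2 in run 2 stayed below every run 1 library. GRL/L libraries rose from 15.04, 15.03 and 16.0 CPM to 21.8, 24.2 and 23.8 CPM (0.60, SE 0.09, adjusted p = 3.96e-06). Klf4 went from 38.2, 44.4 and 46.7 CPM to 53.0, 57.7 and 57.1 CPM in run 2 (0.38, SE 0.06, adjusted p = 1.26e-05), and its run 1 value was -0.02 (SE 0.06, adjusted p = 0.912). GRL/L gave 0.12 for Klf4 (SE 0.06, adjusted p = 0.242), and the run 1 mutants gave no call for either gene. In GRD+L/D+L the Klf4 Dex libraries, at 81.9 to 87.7 CPM, lay below the vehicle libraries, at 93.3 to 96.3 CPM. That value of -0.18 did not pass (adjusted p = 0.125). Without the library rich in Krt5 and Krt14, the run 2 value of Klf2 was 1.12. The 6 endothelial markers summed to 9.14 to 9.88 CPM in vehicle and 8.47 to 10.04 CPM in Dex-treated GRwt/wt of run 2. Of the 4 tested, 0 rose and 1 (Tek) fell there, where 14.9% of all genes rose and 16.7% fell. Calls of these markers in the other groups are not given. The sum rose with Dex without overlap in GRL/L, from 8.91 to 9.23 CPM up to 10.3 to 10.8 CPM, and in GRwt/wt of run 1, from 9.41 to 12.1 CPM up to 17.1 to 18.8 CPM. Its part in the Klf2 values was not tested.

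Klf3 (chr5:64803388-64832901, plus strand), a repressor that binds Ctbp proteins, and Klf10 (chr15:38291463-38300706, minus strand), first described as an early gene of TGF-beta, were called lower in both genotypes of run 2. Klf10 went from 45.8, 43.3 and 43.2 CPM to 31.9, 33.9 and 31.8 CPM in GRwt/wt and from 42.5, 42.8 and 46.3 CPM to 29.8, 29.7 and 31.9 CPM in GRL/L. The vehicle and Dex groups were apart in both, with log2 fold changes of -0.44 (SE 0.05, adjusted p = 4.36e-09) and -0.53 (SE 0.05, adjusted p = 1.1e-10). In GRwt/wt of run 1 it held 35.3 to 38.0 CPM with vehicle and 35.3 to 37.0 CPM with Dex, a value of -0.03 (SE 0.05). In GRD/D and GRD+L/D+L its Dex libraries lay below the vehicle libraries without overlap. Neither change passed, at -0.07 (adjusted p = 0.413) and -0.13 (adjusted p = 0.18). The GRko/ko groups overlapped, at 0.08 (adjusted p = 0.929). Klf3 went from 124, 119 and 122 CPM to 92.4, 104 and 105 CPM in GRwt/wt of run 2 (-0.28, SE 0.06, adjusted p = 0.000516). In run 1 its Dex libraries, at 97.9 to 101 CPM, also lay below the vehicle libraries, at 102 to 118 CPM, with a value of -0.14 (SE 0.06, adjusted p = 0.171), and the runs were not shown to differ (-0.14, 95% interval -0.32 to 0.04, adjusted p = 0.451). In GRL/L it went from 127, 134 and 129 CPM to 119, 106 and 114 CPM (-0.20, SE 0.06, adjusted p = 0.015), a call lost without Dex replicate 2 (adjusted p = 0.121) or vehicle replicate 2 (adjusted p = 0.074). Klf7 (chr1:64029447-64122282, minus strand), which acts in neurite outgrowth, lay between 35.6 and 57.3 CPM in all libraries and was called in no Dex comparison, with values between -0.04 and 0.18. Exons of Klf3 and Klf7 overlap those of genes on the opposite strand, and the strand setting of the counting is not given, so reads of both strands may be mixed in these 2 genes.

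Counted by genotype, 3 members rose and 0 fell in GRD/D, where 5.63% of all genes rose and 6.24% fell, and 3 rose and 0 fell in GRD+L/D+L, where 3.08% rose and 1.92% fell. In both mutants they were Klf6, Klf9 and Klf13. In GRL/L, 6 members rose and 2 fell, against 8.79% and 10.4% of all genes. In GRko/ko, 0 of 10 members were called and 0% of all genes. There, 1 member (Klf9) and 859 genes of the 15489 tested reached an unadjusted p under 0.05, and DESeq2 called 0 members.

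**Figure D2:**
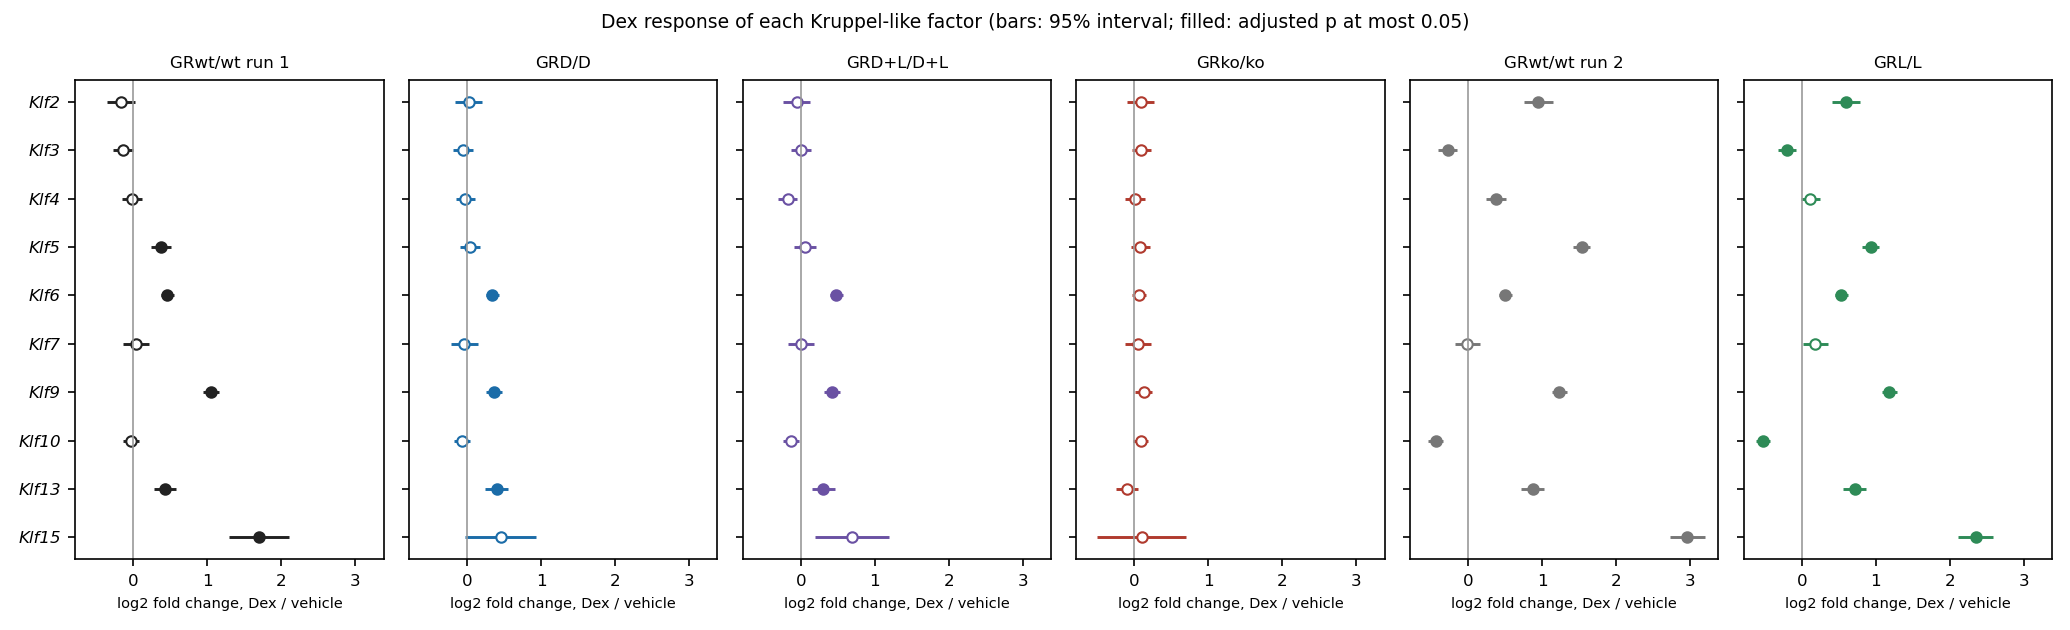
Log2 fold change of each Klf gene, Dex over vehicle, with 95% intervals, one panel per genotype and run. Filled points had an adjusted p of at most 0.05. GRko/ko has no filled point, GRD/D and GRD+L/D+L have Klf6, Klf9 and Klf13, and the 2 panels of run 2 have 9 and 8 filled points.

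A call in one genotype and not in another does not show that the responses differ, so the difference itself was tested as an interaction within a run. Against GRwt/wt of run 1, 3 members responded less in GRD/D and 0 more, where 2.2% of all genes had a lower and 1.08% a higher response. The difference for Klf9 was -0.69 (SE 0.08, 95% interval -0.84 to -0.53, adjusted p = 6e-08). For Klf15 it was -1.25 (SE 0.32, -1.90 to -0.60, adjusted p = 0.0181), which did not pass without GRD/D vehicle replicate 1 (-1.09, adjusted p = 0.0883) or GRwt/wt vehicle replicate 3 (-1.002, adjusted p = 0.095). For Klf5 it was -0.33 (SE 0.09, -0.52 to -0.14, adjusted p = 0.0445), which was lost in 9 of the 12 fits that left out 1 library and with the replicate number as a block (adjusted p = 0.104). Klf6 and Klf13 gave -0.11 (-0.24 to 0.01) and -0.03 (-0.24 to 0.19). The data thus show a smaller Klf9 response in GRD/D, and for Klf6 and Klf13 no difference passed within these intervals.

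GRD+L/D+L gave a lower response for 1 member, where 1.98% of all genes were lower and 1.26% higher. That was Klf9, at -0.63 (SE 0.08, -0.79 to -0.47, adjusted p = 3.34e-07). Klf15 differed by -1.005 (-1.67 to -0.34, adjusted p = 0.102), and passed without GRD+L/D+L vehicle replicate 2 (-1.25, adjusted p = 0.0298) or GRwt/wt vehicle replicate 2 (-1.26, adjusted p = 0.034). Klf5 differed by -0.32 (-0.52 to -0.12, adjusted p = 0.0734), Klf6 by 0.03 (-0.10 to 0.15) and Klf13 by -0.12 (-0.34 to 0.10). Between GRD+L/D+L and GRD/D, 0 members were called, where 0.0581% of all genes were higher and 0.0194% lower. The Klf9 responses of these 2 mutants differed by 0.06 (-0.10 to 0.22), those of Klf15 by 0.24 (-0.46 to 0.94) and those of Klf6 by 0.14 (0.02 to 0.26, adjusted p = 0.409, unadjusted p = 0.0284). Of the 10 members, 1 had an unadjusted p under 0.05 in that comparison, which was Klf6, and DESeq2 also called 0.

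GRko/ko had a lower response for 5 members and a higher one for 0, against 4.68% and 3.8% of all genes. Klf15 differed by -1.60 (SE 0.37, adjusted p = 0.00287), Klf9 by -0.93 (SE 0.08, adjusted p = 2.04e-11) and Klf13 by -0.53 (SE 0.11, adjusted p = 0.000635). Klf6 differed by -0.39 (SE 0.06, adjusted p = 1.38e-05). Klf5, at -0.29 (SE 0.09, adjusted p = 0.041), was lost in 8 of 12 fits without 1 library and with the replicate block (adjusted p = 0.084). These 5 are the members that rose in GRwt/wt of run 1, and both comparisons share those libraries.

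In run 2, GRL/L had a lower response than GRwt/wt for 1 member, where 1.2% of all genes were lower and 0.646% higher. That was Klf5, at -0.61 (SE 0.08, -0.77 to -0.45, adjusted p = 4.96e-06). Klf15 differed by the same -0.61 with a wider error (SE 0.17, -0.96 to -0.26) and missed the threshold (adjusted p = 0.0565), and it passed without GRL/L vehicle replicate 3 (-0.74, adjusted p = 0.0168) or GRwt/wt vehicle replicate 5 (-0.72, adjusted p = 0.0413). The difference for Klf9 was -0.06 (-0.20 to 0.09), for Klf6 0.03 (-0.09 to 0.16) and for Klf10 -0.09 (-0.23 to 0.05). Klf2 gave -0.35 (-0.62 to -0.08, adjusted p = 0.232), and without the library rich in Krt5 and Krt14 it gave -0.53 (adjusted p = 0.0181). Klf4 gave -0.26 (-0.45 to -0.08, adjusted p = 0.16). The 4 adipocyte markers summed to 2.09 to 4.29 CPM in GRL/L and 9.44 to 14.2 CPM in GRwt/wt of run 2, and their part in these differences was not tested.

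**Figure D3:**
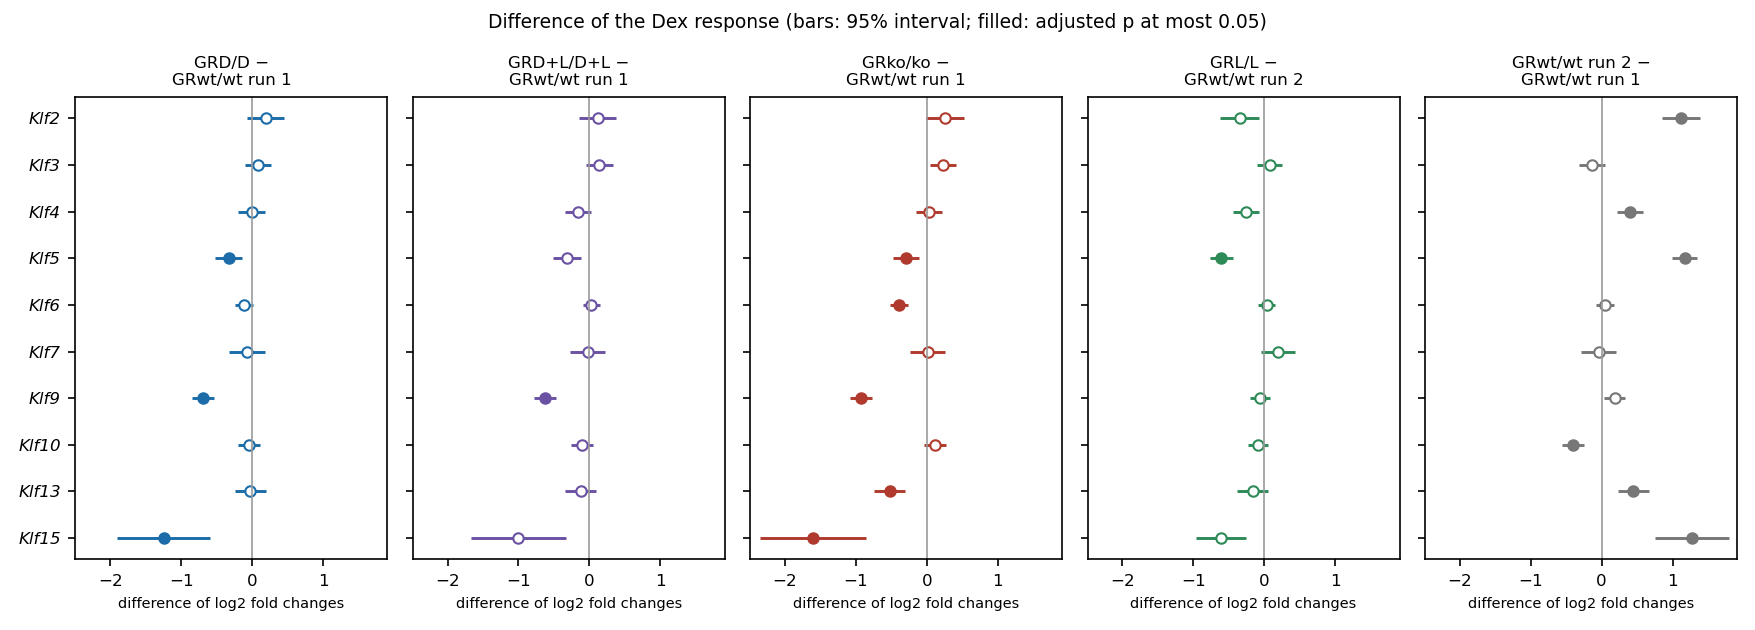
Difference of the log2 Dex response between genotypes of one run, and between the 2 runs of GRwt/wt, with 95% intervals and filled points for an adjusted p of at most 0.05. Klf9 and Klf15 lie to the left in GRD/D, GRD+L/D+L and GRko/ko, with Klf15 an open point in GRD+L/D+L. In the last panel Klf2, Klf5 and Klf15 lie more than 1 to the right.

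The GRwt/wt responses of the 2 runs differed for 6 members, 5 higher and 1 lower in run 2, against 3.2% and 3.89% of all genes. Klf15 differed by 1.27 (SE 0.26, adjusted p = 0.000894), Klf5 by 1.17 (SE 0.09, adjusted p = 3.46e-12) and Klf2 by 1.12 (SE 0.13, adjusted p = 1.27e-07). Klf13 differed by 0.45 (SE 0.11, adjusted p = 0.00553) and Klf4 by 0.40 (SE 0.09, adjusted p = 0.0037), while Klf10 differed by -0.40 (SE 0.07, adjusted p = 0.000203). Klf6 (0.05, 95% interval -0.08 to 0.17) and Klf7 (-0.04, -0.29 to 0.20) were not called. The cultures of the runs also differed in markers, with a sum of 5 skeletal muscle markers between 308 and 756 CPM in run 1 and between 3.96 and 8.69 CPM in run 2. Nearly all of it was Acta1, and the other 4 markers were under 1 CPM in every library. Adipocyte markers summed to 9.4 to 14.2 CPM in GRwt/wt of run 2 and to at most 0.2 CPM in run 1. The part of these differences in the Klf results was not tested.

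The last comparison asked whether the members differ between genotypes without Dex. In vehicle-treated GRko/ko, 3 members were higher and 3 lower than in GRwt/wt of run 1, where 24.4% of all genes were higher and 21.3% lower. Klf13 (0.46, SE 0.08, adjusted p = 3.13e-06), Klf10 (0.37, SE 0.05, adjusted p = 2.98e-07) and Klf5 (0.32, SE 0.07, adjusted p = 0.000117) were higher. Klf6 (-0.36, SE 0.04, adjusted p = 9.98e-09), Klf3 (-0.22, SE 0.06, adjusted p = 0.00437) and Klf9 (-0.15, SE 0.06, adjusted p = 0.0304) were lower. Klf9 lost its call in 3 of 6 fits without 1 library, namely GRko/ko vehicle replicate 1 (adjusted p = 0.092) or 2 (adjusted p = 0.0523) and GRwt/wt vehicle replicate 2 (adjusted p = 0.167). It was also not called with library totals (-0.08, adjusted p = 0.235), an additive run term (-0.10, adjusted p = 0.163) or no filter (-0.15, adjusted p = 0.0785). Klf3 lost it without GRwt/wt vehicle replicate 3 (adjusted p = 0.0506), the fit in which Klf15, at -0.60 (adjusted p = 0.0806) with all libraries, was called (-0.84, adjusted p = 0.0158). With GRko/ko also moved all 6 macrophage markers, by a median of 3.56 on the log2 scale, and 10 of 13 immediate early genes were higher. Their part in the Klf values was not tested.

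Klf13 was lower in GRD+L/D+L (-0.45, SE 0.08, adjusted p = 2e-05) and in GRD/D (-0.27, SE 0.08, adjusted p = 0.0171), the one member called in GRD/D, where 3.89% of all genes were lower and 5.66% higher. The GRD/D call was lost without its vehicle replicate 1 (-0.25, adjusted p = 0.0671), its vehicle replicate 2 (-0.17, adjusted p = 0.22) or GRwt/wt vehicle replicate 3 (-0.23, adjusted p = 0.117). In GRD+L/D+L, 2 members were higher and 2 lower, against 13.9% and 15.9% of all genes. Klf4 (0.25, SE 0.06, adjusted p = 0.0023) and Klf10 (0.21, SE 0.05, adjusted p = 0.00261) were higher, and Klf3 was lower (-0.18, SE 0.07, adjusted p = 0.0366). With an additive run term the Klf10 difference was 0.10 and not called (adjusted p = 0.279). Klf3 lost its call in 4 of 6 fits without 1 library, namely GRD+L/D+L vehicle replicate 2 (adjusted p = 0.0688) or 3 (adjusted p = 0.112) and GRwt/wt vehicle replicate 2 (adjusted p = 0.0586) or 3 (adjusted p = 0.225), and with the replicate block (adjusted p = 0.0528). Against GRwt/wt of run 1, all 6 macrophage markers were higher in GRD/D and lower in GRD+L/D+L, and all 6 were higher in GRL/L against run 2. In GRL/L, Klf2 was higher (0.37, SE 0.10, adjusted p = 0.0108), the one call among the members where 6.88% of all genes were higher and 4.47% lower. It rested on the lowest GRwt/wt library (9.42 CPM, replicate 4), without which it was 0.22 (adjusted p = 0.167), and it was not called in a fit of the run 2 libraries alone (0.36, adjusted p = 0.0612).

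**Figure D4:**
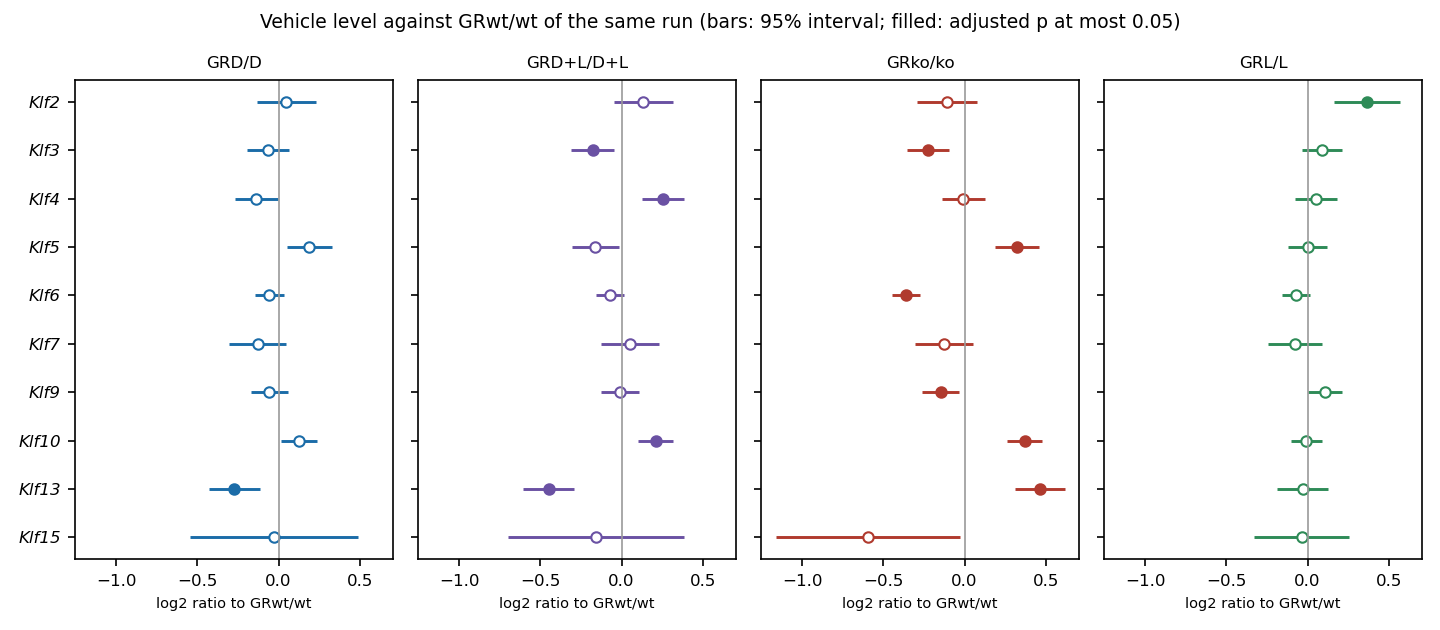
Log2 ratio of the vehicle level of each Klf gene to GRwt/wt of the same run, with 95% intervals and filled points for an adjusted p of at most 0.05. Klf13 is lower in GRD/D and GRD+L/D+L and higher in GRko/ko, and GRL/L has Klf2 as its one filled point.

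With a log2 change of at least 1 as a further condition, the members called in Dex comparisons were Klf9 and Klf15 in GRwt/wt of run 1 and in GRL/L, where 2.01% and 2.56% of all genes were called, and Klf5 as well in run 2 (all genes 4.49%). The mean of runs had 2 (all genes 3.06%), and GRD/D, GRD+L/D+L and GRko/ko had 0 (all genes 0.981%, 0.4% and 0%). Klf15 was the response difference of that size in GRD/D (all genes 0.613%) and in GRko/ko (all genes 1.69%), and Klf2, Klf5 and Klf15 were those between runs (all genes 1.03%). For the responses of GRD+L/D+L and GRL/L and between GRD+L/D+L and GRD/D there were 0 (all genes 0.6%, 0.123% and 0.00646%). No vehicle difference of a member was as large, where 2.12% of all genes passed in GRD/D, 5.57% in GRD+L/D+L, 14.2% in GRko/ko and 1.31% in GRL/L.

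Of the 7 other family members, 5 passed the filter. Among them Klf12, a repressor, rose in both runs of GRwt/wt, by 1.03 (SE 0.14, adjusted p = 2.4e-07) and 1.04 (SE 0.15, adjusted p = 9.2e-07), and 1 of 5 was called in run 1 and 2 of 5 in run 2, all upward. Klf12 levels were 12.1 ± 1.07 and 24.8 ± 1.49 CPM in run 1 and 4.54 ± 0.0981 and 9.31 ± 2.46 CPM in run 2 (vehicle and Dex, SD, n = 3 each). It also rose in GRL/L (0.68, SE 0.14, adjusted p = 0.000542), and its response in GRD/D differed from GRwt/wt by -0.75 (SE 0.21, adjusted p = 0.0325). For these and the lists that follow, the shares of all tested genes were 7.74% higher and 6.2% lower in run 1 and 14.9% and 16.7% in run 2, and with so few genes a list several of the counts lie near them. Of the 9 Sp factors, which share the zinc fingers of the family, 6 passed the filter and 0 rose, with 1 lower in run 1 and 2 in run 2. Of 14 co-regulators and ubiquitin ligases of the family, 1 rose and 2 fell in run 1, and 1 rose and 3 fell in run 2. Sin3a, the corepressor of Klf9, Klf10 and Klf13, fell in both (-0.20, SE 0.06, adjusted p = 0.0237, and -0.16, SE 0.06, adjusted p = 0.025).

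Of 14 genes described as Klf targets elsewhere, 13 were tested, of which 2 rose and 2 fell in run 1, and 5 rose and 2 fell in run 2. The 2 that fell in run 2 are close to the 16.7% of all genes that fell there. S1pr1 and Thbd, targets of Klf2 in endothelial cells, fell in both runs, with log2 fold changes of -1.32 (SE 0.07) and -1.35 (SE 0.07) for S1pr1 and -1.12 (SE 0.05) and -0.88 (SE 0.05) for Thbd. Both also fell in GRD/D, GRL/L and GRD+L/D+L. Ccnd1, a cell cycle gene linked to Klf5, rose in both runs, by 0.55 (SE 0.05) and 0.63 (SE 0.05). Prodh and Bcat2, amino acid catabolism genes linked to Klf15, were named here after their values were seen. They rose in run 2 (0.87, SE 0.16, adjusted p = 6.42e-05, and 0.35, SE 0.06, adjusted p = 1.5e-05). Neither was called in run 1 (-0.29, adjusted p = 0.661, and 0.20, adjusted p = 0.0523). They are 2 picked from the 13 tested, and others of the list, such as Gpt and Slc2a4, are not given. Whether Klf15 has a part in their values was not tested. Of 8 established GR targets such as Fkbp5, all 8 rose in both runs of GRwt/wt and in GRL/L and 0 were called in GRko/ko, while 6 rose in GRD/D and 5 in GRD+L/D+L, with 1 lower in each (all genes 5.63% and 3.08% higher, 6.24% and 1.92% lower). Of 13 immediate early genes, a group whose serum-response regulation some Klf genes share, 1 rose and 6 fell in each GRwt/wt run. Egr3, 1 of those that fell, had log2 fold changes of -1.34 (SE 0.19) and -1.28 (SE 0.13). It is a single gene picked from the list, and the values of the others are not given.

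Across the 12 group means of log2 CPM, the genes closest to Klf9 were D230025D16Rik (Pearson r = 0.983), Klf15 (r = 0.975) and Mt2 (r = 0.970), and those closest to Klf15 were Gm11827 (0.981), Glt28d2 (0.976) and Klf9 (0.975). Klf9 and Klf15 were thus each among the 3 nearest neighbours of the other. Klf4, whose group means differ mainly between runs, was closest to Gm15264 (0.991), Atp1b1 (0.985) and Zfp622 (0.983). The 12 points share libraries, runs and treatment, and these r are descriptions.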

How the data were processed

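The authors deposited one table of raw read counts per gene for all 36 libraries, without normalization or filter. Per their methods, TruSeq libraries were run on a NextSeq instrument, and reads were mapped to mm10 with HISAT2 2.1.0, filtered to unique alignments and counted with featureCounts 2.0.0 (versions per the submitters' processing notes). The annotation release and strand setting are not given in the sources used here. The study used DESeq2 with an additive experiment term. Here the run is part of each group, and the additive model was an alternative.

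Genotype, treatment and replicate number came from the sample titles, which name no run. The 2 runs follow the 2 parts of the experiment that the study describes. GRwt/wt replicates 4 to 6 were taken as those of run 2. The 12 groups entered one edgeR 4.0.16 model (limma 3.58.1, R 4.3.3) with TMM library sizes, after filterByExpr left 15489 genes, which hold 99.93% of all counts. The quasi-likelihood F test gave Dex responses, their differences (interactions) and vehicle differences, with p-values adjusted by Benjamini-Hochberg over all 15489 genes. The SE was derived from the log2 fold change and its F value and is approximate. CPM uses TMM library sizes, and log2 CPM a prior count of 2. Gene lengths came from GENCODE M21 and promoters from RefSeq (GRCm38.p6). Figures used matplotlib 3.10.9.

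All 10 members are named, together with some members of the lists that were called in both runs of GRwt/wt. Other list members called in both runs are counted but not named. Also named are the 3 genes whose 12 group means correlate best with those of Klf9, of Klf15 and of Klf4. Nr3c1 is named as the targeted gene. Prodh and Bcat2, and cell type markers such as Tek, are named outside this rule. Members and lists were chosen with earlier results of these data known. No near-identical pair of libraries was found among 36 pairs. The fit was tested on simulated data with known changes and a larger spread than the fitted one. In GRwt/wt of run 1 it recovered 79.1% of genes simulated at 1.5-fold and 100% of those at 2-fold. It made 8 false calls among 194 there. In GRD/D, simulated with a weaker response, it recovered 8.96% and 50.7% of the same genes. The depth, 15280166 to 28662608 counts per library, gave Klf15 only 12 to 99 counts in vehicle libraries, the fewest of the members.

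Alternatives were DESeq2 1.42.0, its size factors or library totals in place of TMM, no filter, the additive run term, libraries of one run only, the replicate number as a block, an added log2 fold change limit of 1, and each library left out in turn. The labels do not say whether same-numbered vehicle and Dex libraries share a culture. Only in GRko/ko did every Dex library deviate most like the vehicle library of its own number. These correlations (0.16 to 0.34) are weak and do not settle the pairing, which the main fit leaves out. Elsewhere the correlations ran from -0.26 to 0.18, and in GRD+L/D+L they were all positive (0.016 to 0.111).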

Additional observations from a re-analysis of the deposited data

Results flagged for a closer look

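Each result here was flagged because a Dex response differed between genotypes of one run, or between runs of GRwt/wt, by the interaction test of edgeR (log2 differences, Benjamini-Hochberg adjusted over all genes). Against GRwt/wt of run 1, GRD/D was lower for Klf9 (-0.69), Klf15 (-1.25) and Klf5 (-0.33), and GRD+L/D+L for Klf9 (-0.63). GRko/ko was lower for Klf15 (-1.60), Klf9 (-0.93), Klf13 (-0.53), Klf6 (-0.39) and Klf5 (-0.29). Against GRwt/wt of run 2, GRL/L was lower for Klf5 (-0.61). Between the runs of GRwt/wt, run 2 was higher for Klf15 (1.27), Klf5 (1.17), Klf2 (1.12), Klf13 (0.45) and Klf4 (0.40) and lower for Klf10 (-0.40). The GRD/D, GRD+L/D+L and GRko/ko values share the GRwt/wt libraries of run 1, so the Klf9 and Klf15 values of these mutants are not independent of each other. The marker differences between the cultures of the 2 runs stand beside the run values, and their part in them was not tested.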

How the results depend on the processing

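Of 170 single-gene results, 65 were called. Over 1440 values with 1 library left out, 1398 kept their direction and side of the threshold, 35 lost and 7 gained the call, and 0 called results changed sign. Over all 2570 alternative values, 109 differed in sign, 0 of them where either fit made a call. Counts of members called ranged, with 1 library left out, from 1 to 3 for the response of GRD/D, 1 to 2 for that of GRD+L/D+L, 1 to 2 for that of GRL/L, 0 to 1 for the vehicle level of GRD/D and 0 to 1 for that of GRL/L. The Klf5 differences of GRD/D and GRko/ko from GRwt/wt were the calls lost most often, also with library totals, without the filter and with DESeq2. Without the filter, the response of GRL/L had 2 calls. With the additive run term, it had 0, that of GRD+L/D+L 4, and the vehicle level of GRL/L 0, as with run 2 libraries alone (0). The additive term sets mutants against both GRwt/wt runs. In it the Klf15 differences from GRwt/wt were -2.24 in GRD/D, -1.997 in GRD+L/D+L and -2.59 in GRko/ko, and the Klf5 response of GRL/L differed by -0.12 (adjusted p = 0.904). With library totals, Klf3 fell in GRwt/wt of run 1 (-0.18, adjusted p = 0.0356) and Klf4 in GRD+L/D+L (-0.21, adjusted p = 0.036), the Klf3 response was higher in GRko/ko (0.28, adjusted p = 0.0339), and Klf9 lost its vehicle difference there (-0.08, adjusted p = 0.235). The additive term ended 6 calls, among them Klf13 with Dex in GRD+L/D+L (adjusted p = 0.0627) and Klf10 (0.10), Klf9 (-0.10) and Klf13 (-0.16) in the vehicle comparisons of GRD+L/D+L, GRko/ko and GRD/D.

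With an added log2 fold change limit of 1, the members called were 2 in GRwt/wt run 1, 3 in run 2, 2 for the mean of runs, 0 in GRD/D, 2 in GRL/L and 0 in GRD+L/D+L. Response differences then numbered 1 for GRD/D, 0 for GRD+L/D+L, 1 for GRko/ko, 0 for GRL/L and 3 between runs, and vehicle differences 0 in each of the 4 mutants.

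With the replicate number as a block, Klf5 lost its response difference in GRD/D (-0.33, adjusted p = 0.104) and GRko/ko (-0.29, adjusted p = 0.084) and Klf3 its vehicle difference in GRD+L/D+L (-0.17, adjusted p = 0.0528), and no other member's call changed. Over all genes the block moved the calls for GRD+L/D+L against GRD/D from 12 to 2. GRL/L and GRwt/wt of run 2 share no replicate numbers, so their vehicle levels had no paired fit. Klf15, at 12 to 99 counts in vehicle libraries, is the member whose precision depth limits most.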
